A study of Schizosaccharomyces pombe with 12 samples.

Results

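Mediator is the large complex that passes signals from DNA-bound transcription factors to RNA polymerase II, and its subunits are grouped into a head, a middle, a tail and a detachable kinase module. The 10 subunit genes described here were taken by gene ID from the 6888 genes of the deposited tables. Of these, 5 encode head subunits: med20 (SPAC17G8.05), med18 (SPAC5D6.05), med8 (SPBC21.04), med6 (SPAC1002.15c) and med11 (SPAC644.10). The middle subunit Med1 is encoded by med1 (SPAC2F7.04), and the kinase module by 4 genes, srb8 (SPAC688.08), med13 (SPAC589.02c), srb10 (SPAC23H4.17c) and srb11 (SPBC12D12.06). In RefSeq ASM294v3, med8 and srb11 lie on chromosome II and the other genes on chromosome I, and each has 1 annotated transcript with 1 to 3 introns. The head contacts the polymerase and the general factors at promoters, and within it Med8, Med18 and Med20 form a submodule in which Med18 and Med20 pair with each other and Med8 ties them to the rest. The kinase module holds a cyclin-dependent kinase (Srb10) with its cyclin (Srb11), Srb8, and Med13, which joins the module to the core complex. The second deleted gene, rrp6, encodes an exonuclease of the nuclear exosome, the complex that trims and degrades RNA in the nucleus.

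The RNA came from the fission yeast Schizosaccharomyces pombe, with 3 samples for each of 4 strains. The med20Δ strain was labelled h+ leu1-32 ura4-D18 with the allele med20:NAT. The rrp6Δ strain was labelled h- with rrp6∆::KanMx6, and its label also names Leu1-32, His2, Ura4 DS/E and a ura+ insert at Otr1R(Sph1). The double mutant, med20Δ rrp6Δ, carried med20:natMX and rrp6∆::KanMx6 with leu1-32 and ura4-D18, and wild type was an h- strain (L972 to L974 in the labels). The strains thus differ in mating type and markers as well as in the deletions, and the extent of each deletion was not given in the sources used here. All were grown in YEA, a rich medium, at 30 °C and collected at an optical density between 0.5 and 1, and poly(A) RNA was sequenced from strand-marked libraries. Mutants were compared with wild type to ask what each deletion does to the RNA of these genes.

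The deposited tables give 1 mean normalised count per strain. The counts of the 3 libraries behind each mean were recovered from the digits of the mean, and for all 10 genes exactly 1 set of 3 whole counts fitted each mean. Levels below are recovered counts divided by a size factor over the 12 libraries, whose totals lay between 6153691 and 9591046 counts. The lowest deposited value equals a count of 1 in every library, so a count of 1 may stand for none. In the rrp6 gene, recovered counts were 1, 3 and 1 in rrp6Δ and 3, 1 and 1 in the double mutant, against 1154, 933 and 1183 in med20Δ and 994, 1915 and 1238 in wild type. The ura4 marker went against 1 label: its levels were 2482, 2791 and 2120 in the libraries labelled med20Δ ura4-D18, 1372, 1192 and 1378 in rrp6Δ, 1.85, 5.25 and 2.68 in the double mutant, and 2047, 2732 and 2106 in wild type. All rrp6Δ values lay below all wild-type values, and the deposited test did not call the difference (log2 -0.77, DESeq adjusted p = 0.166 in the authors' deposited table). In each strain 1 library stood apart from the other 2 on the third principal component of the genes tested by limma. This split was made after seeing the data, by taking the library furthest from the median of its strain. That library is the first value listed for med20Δ and wild type and the second for rrp6Δ and the double mutant. Values without it are given beside the results that it turns or calls.

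The stretches of DNA before the annotated start of med20, med18 and med8 are shown because these 3 genes encode the 3 partners of the head submodule and their RNA followed 3 different patterns across the strains. Each runs 5′ to 3′ on the strand of its gene, ends at the base before the transcript start in RefSeq ASM294v3, and stops short of the next protein-coding transcript or at 250 bases. They lie at chrI:2349943-2350192 on the plus strand for med20, chrI:1504868-1505087 on the minus strand for med18 and chrII:3219313-3219404 on the plus strand for med8.
med20: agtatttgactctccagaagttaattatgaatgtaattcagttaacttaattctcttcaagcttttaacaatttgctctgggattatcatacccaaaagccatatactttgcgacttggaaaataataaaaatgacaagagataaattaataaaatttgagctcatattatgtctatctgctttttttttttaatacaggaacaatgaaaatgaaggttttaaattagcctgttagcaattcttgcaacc
med18: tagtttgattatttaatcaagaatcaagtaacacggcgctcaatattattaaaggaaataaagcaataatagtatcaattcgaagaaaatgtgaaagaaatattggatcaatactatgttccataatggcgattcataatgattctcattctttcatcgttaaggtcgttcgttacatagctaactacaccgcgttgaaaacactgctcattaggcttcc
med8: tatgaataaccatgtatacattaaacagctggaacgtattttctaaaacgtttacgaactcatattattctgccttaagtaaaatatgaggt
None of the 3 holds TATAAA on either strand, which is why no letter is in capitals. Of 5112 stretches of the same length before protein-coding genes, 44.4% hold it at the length of the med20 stretch, 39.7% at that of med18 and 17.04% at that of med8. Those 5112 stretches were not stopped at a neighbouring transcript, as the stretches of med18 and med8 were.

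Besides the deleted med20, med18 was the one gene of the 10 that passed the deposited test in any mutant, and it fell in both strains without rrp6. A gene was called at a DESeq adjusted p under 0.05 in the authors' deposited table. In med20Δ the test called 1 of the 10 genes lower (med20), where 2.37% of all genes were called and 1.25% called lower. In rrp6Δ it called 1 lower (med18), where 5.97% of all genes were called and 1.0% called lower. In the double mutant it called 2 lower (med20 and med18), where 15.3% were called and 6.71% called lower, and none of the 10 was called higher in any mutant. Limma on the recovered counts called the same genes, where it called 4.37% of all genes in med20Δ, 8.31% in rrp6Δ and 30.6% in the double mutant against wild type. It called 2 of the 10 between the double mutant and med20Δ (med20 higher and med18 lower; 14.4% of all genes) and 1 between the double mutant and rrp6Δ (med20; 8.56% of all genes).

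**Figure D1:**
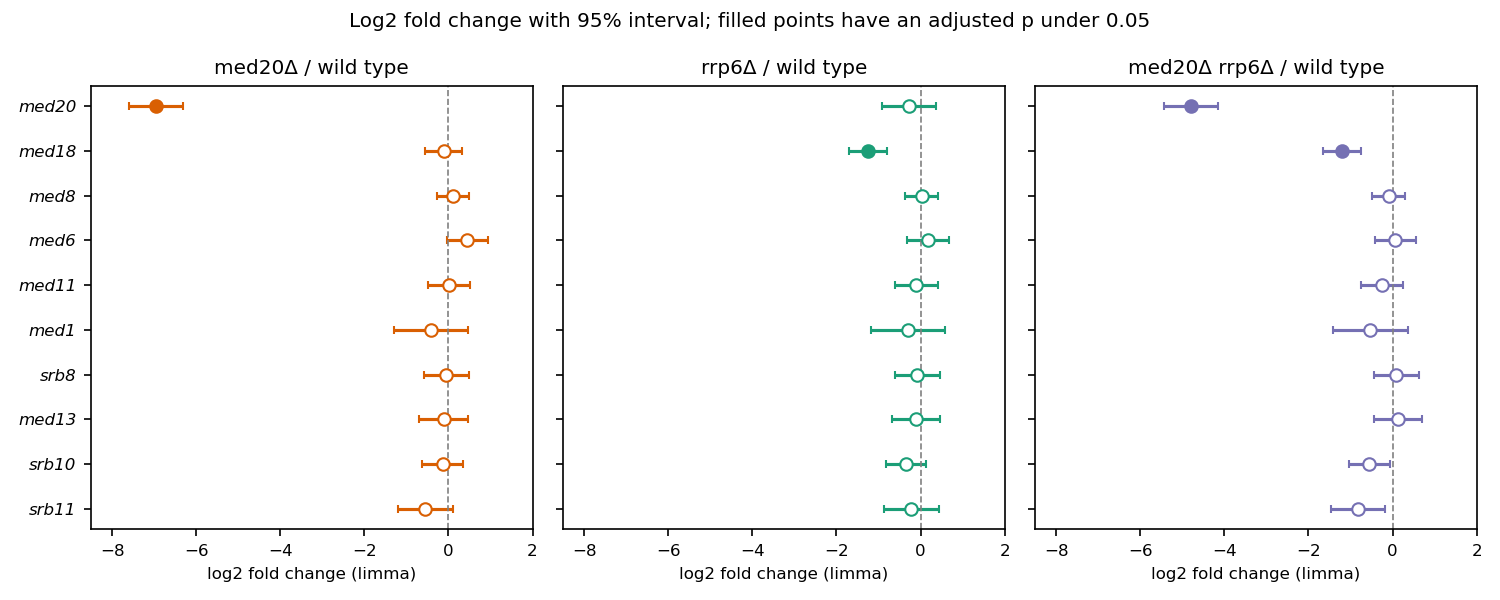
Log2 fold change of the 10 genes against wild type by limma (x axis; points) with the 95% interval (bars) in med20Δ, rrp6Δ and the double mutant, filled where the adjusted p is under 0.05. Apart from med20 itself, med18 in the strains without rrp6 is the only filled point, at -1.25 in rrp6Δ and -1.21 in the double mutant.

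Leaving out med20 itself, at most 1 of the other 9 genes was called against wild type in a mutant, which is near the share over all genes. Over these 9 genes the median log2 fold change in the authors' deposited tables was -0.14 in med20Δ, -0.098 in rrp6Δ and -0.23 in the double mutant, beside -0.0027, -0.043 and -0.027 over all genes. With med20 included it was -0.14, -0.14 and -0.37. The 3 comparisons share their wild-type libraries. Among the 9 genes, all 3 values of a mutant lay below all 3 wild-type values for 1 in med20Δ (srb11; 12.4% of the genes tested by limma), for 2 in rrp6Δ (med18 and srb10; 13.7%) and for the same 2 in the double mutant (22.0%). Between the double mutant and med20Δ, med18 and srb10 lay wholly lower (16.8% of genes), and of the 10 genes med20 was the one that lay wholly higher (16.2%).

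In the strains labelled as deleted for it, med20 was nearly absent. Recovered counts were 6, 2 and 5 in med20Δ, 799, 572 and 603 in rrp6Δ, 48, 23 and 28 in the double mutant and 637, 608 and 569 in wild type. In the authors' deposited tables the log2 fold change against wild type was -7.14 in med20Δ (DESeq adjusted p = 8.85e-46) and -4.82 in the double mutant (adjusted p = 5.80e-23). The deletion was the reason these strains were made, so these values check the labels and are no finding. More reads were assigned to med20 in the double mutant than in med20Δ: the level was 29.6, 20.1 and 24.99 in the double mutant against 6.28, 2.55 and 6.35 in med20Δ, with no overlap. By limma the double mutant was higher by 2.15 ± 0.30 on the log2 scale (SE; adjusted p = 0.000379, 3 libraries each). The interaction rests largely on the same residual counts and is no separate result. By it, the fall of med20 in its deletion strains was smaller where rrp6 was deleted, by 2.43 on the log2 scale (95% interval 1.53 to 3.33, limma adjusted p = 0.0257). Of the 5947 genes tested, 0.252% were called for this interaction. That call was lost without 1 library in 7 of 12 cases, and without the 4 libraries that stood apart (limma adjusted p = 0.0667). Over all 12 of those cases, lost or kept, the limma adjusted p lay between 0.021 and 0.118. The interaction compares residual reads of a deleted gene. The med20Δ strain and the double mutant also differ in the label of the med20 allele and in ura4. The rrp6 deletion cannot be told apart from these differences here.

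The 3′ end of the med20 transcript overlaps that of ilv3 by 95 bases on the opposite strand. In the authors' deposited tables ilv3 had means of 10709 in med20Δ against 15622 in wild type (log2 -0.54, adjusted p = 0.562), and its log2 fold change in the double mutant was -0.83 (adjusted p = 0.0759). Whether the counting used strand was not given in the sources used here, and the part of ilv3 reads in the residual med20 counts was not tested. Where rrp6 alone was deleted, the med20 level was 657, 546 and 573 in rrp6Δ against 713, 687 and 740 in wild type. All 3 rrp6Δ values lay below all 3 wild-type values, but the difference was not called (log2 -0.23, DESeq adjusted p = 0.898 in the authors' deposited table).

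The gene of Med20's partner, med18, was lower in both strains without rrp6, whether or not med20 was present, whereas in med20Δ its libraries overlapped those of wild type. The med18 level was 487, 625 and 594 in med20Δ, 250, 236 and 287 in rrp6Δ, 273, 254 and 268 in the double mutant and 480, 747 and 644.0 in wild type. The highest of the 6 libraries without rrp6 lay well below the lowest of the 6 libraries with it. The authors' deposited tables give med18 a log2 fold change of -1.24 in rrp6Δ (DESeq adjusted p = 0.00588) and of -1.22 in the double mutant (adjusted p = 0.0174). In med20Δ the authors' deposited value was -0.14 (adjusted p = 1), and the limma interval ran from -0.57 to 0.33. The double mutant was lower than med20Δ as well, with a limma log2 difference of -1.09 ± 0.21 (SE; adjusted p = 0.00378). The double mutant and rrp6Δ could not be told apart for med18, with a difference of 0.046 and a 95% interval of -0.40 to 0.49 (limma adjusted p = 0.921). In bulk RNA a lower level cannot tell fewer cells expressing a gene from less of its RNA in each cell.

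The typical protein-coding gene also shifted slightly in the strains without rrp6: the median log2 fold change of protein-coding genes in the authors' deposited tables was -0.032 in med20Δ, -0.12 in rrp6Δ and -0.18 in the double mutant. Relative to that median, med18 was at -1.12 in rrp6Δ and at -1.04 in the double mutant. Without the libraries that stood apart, limma gave med18 -1.37 in rrp6Δ (adjusted p = 0.00171) and -1.35 in the double mutant (adjusted p = 0.000647). Over all alternatives tried, the adjusted p for med18 ran between 6.61e-05 and 0.0134 in rrp6Δ and between 3.22e-05 and 0.0174 in the double mutant, and med18 was called in all of them.

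**Figure D2:**
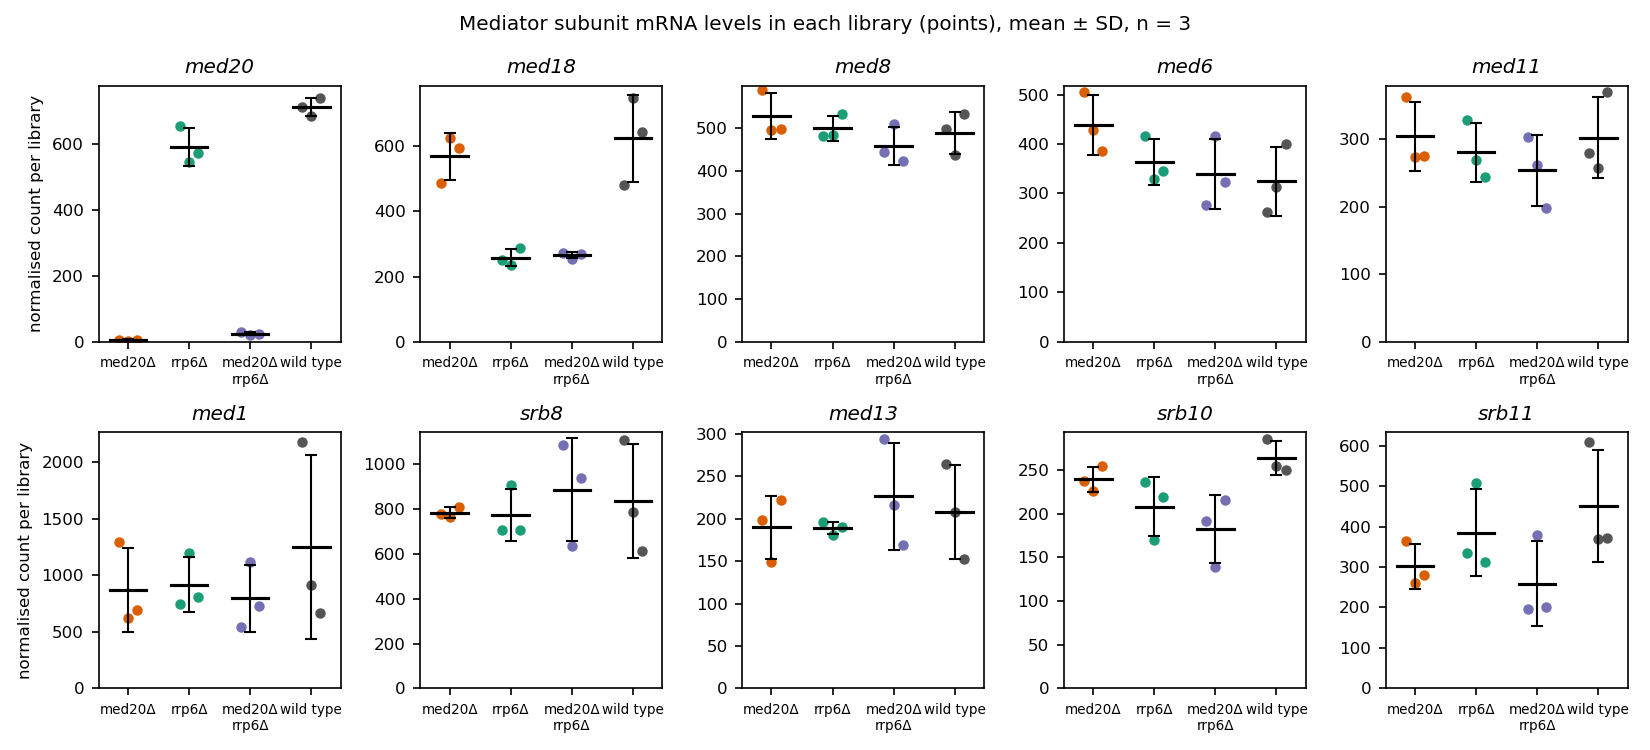
Normalised counts of the 10 Mediator genes (y axis, from 0, a separate scale for each gene) in the 3 recovered libraries of each strain (points), with the mean and SD (lines). The med18 points of rrp6Δ and the double mutant lie between 236 and 287, below all points of med20Δ and wild type, which lie between 480 and 747.

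Set against its head partners within the same library, med18 stayed low without rrp6, and such a ratio does not depend on the size factors. The ratio of med18 to med8 counts was 0.824, 1.26 and 1.19 in med20Δ, 0.518, 0.487 and 0.537 in rrp6Δ, 0.613, 0.499 and 0.632 in the double mutant and 0.964, 1.71 and 1.204 in wild type. Every library without rrp6 was below every library with it. Against med6 the mean ratio was 1.32 ± 0.31 in med20Δ, 0.715 ± 0.12 in rrp6Δ, 0.807 ± 0.19 in the double mutant and 1.94 ± 0.40 in wild type (SD, n = 3 each). Here 1 library of the double mutant (0.984) was above the lowest of med20Δ (0.965), so those groups overlapped. Against med11 the mean ratio was 1.93 ± 0.51 in med20Δ, 0.939 ± 0.22 in rrp6Δ, 1.08 ± 0.24 in the double mutant and 2.13 ± 0.68 in wild type. The highest med11 ratio in the double mutant, 1.36, was also above the lowest in med20Δ, 1.34. Such a ratio shows that the genes of a pair changed unequally, not which of them stayed level.

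**Figure D3:**
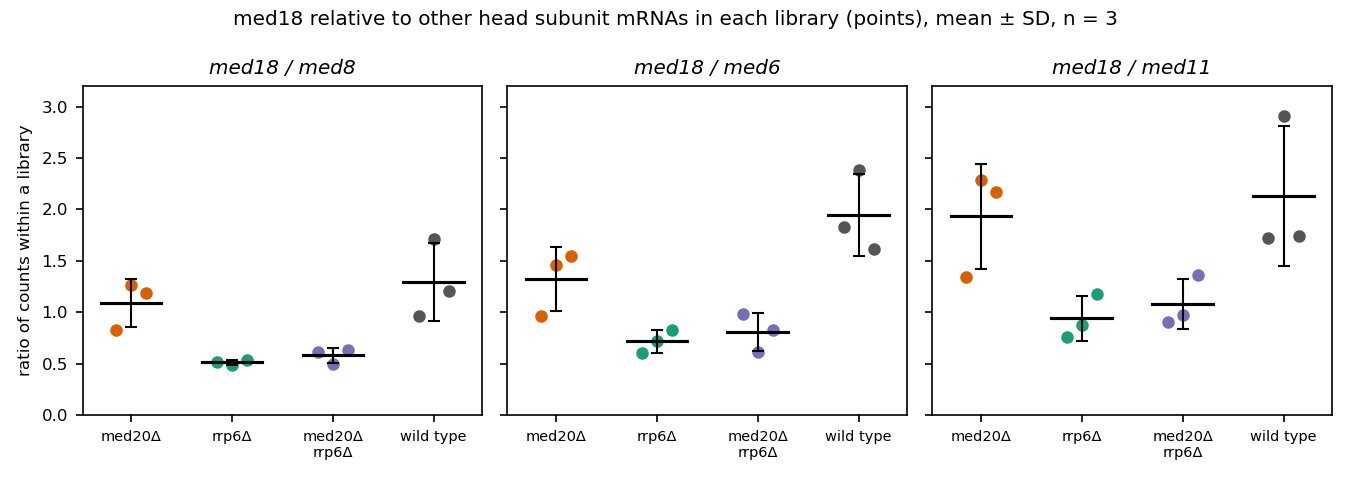
Ratio of med18 counts to those of med8, med6 and med11 in each recovered library (points, y axis from 0), with the mean and SD of each strain (lines). For med8 the 6 libraries without rrp6 lie between 0.487 and 0.632 and the other 6 between 0.824 and 1.71.

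The genes beside med18 were not called in any mutant. The neighbour alg14, which lies 2 bases beyond the 3′ end of med18 on the opposite strand, had log2 fold changes of 0.21, 0.12 and 0.24 in med20Δ, rrp6Δ and the double mutant in the authors' deposited tables. SPAC5D6.04, on the same strand 220 bases upstream, had 0.21, -0.62 and -0.026 in the same order, and the lowest adjusted p of the pair was 0.342. A long non-coding RNA, SPNCRNA.2669, overlaps med18 by 739 bases on the opposite strand in RefSeq, and it is not analysed here. Its reads can be told apart from those of med18 only if the counting used strand. The pattern of med18 over the 12 libraries was most like those of ade5, a gene of purine synthesis (Pearson r = 0.973 of log2 levels), of the deleted gene rrp6 (r = 0.965) and of shd1, which encodes a cytoskeletal protein of the Sla1 family (r = 0.964), among 5926 genes outside Mediator. These r values describe 12 libraries in 4 strains and were not tested, and the mean of each of these genes was lower in both strains without rrp6 than in the others. The r of rrp6 follows from its own deletion in the strains where med18 was lower, so it is no finding. The ade5 level was 3007 ± 293 in med20Δ, 1488 ± 265 in rrp6Δ, 1405 ± 57.6 in the double mutant and 3092 ± 430 in wild type (SD, n = 3 each).

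The other head genes showed no called change in any mutant. The med8 gene, whose product anchors Med18 and Med20, was at 591, 496 and 499 in med20Δ, 483, 484 and 534 in rrp6Δ, 446, 510 and 424 in the double mutant and 498, 437 and 535 in wild type. The strains overlapped throughout, and the limma intervals for med8 against wild type were -0.28 to 0.50 in med20Δ, -0.36 to 0.42 in rrp6Δ and -0.48 to 0.30 in the double mutant. A change of 1 on the log2 scale in either direction lay outside all 3 intervals. For med6, which lies at the joint of head and middle, levels were 505, 428 and 385 in med20Δ against 262, 313 and 399 in wild type, with log2 0.43 in the authors' deposited table (adjusted p = 0.773). The lowest med20Δ value fell below the highest wild-type value. In rrp6Δ and the double mutant the deposited log2 values of med6 were 0.20 and 0.079 (adjusted p = 0.897 and 0.941). Without the libraries that stood apart, limma gave med6 -0.23 in the double mutant (adjusted p = 0.41). For med11, a small subunit near the base of the head, the authors' deposited log2 values were 0.0023, -0.068 and -0.23 in med20Δ, rrp6Δ and the double mutant, and its levels ranged from 197 to 370 over the 12 libraries. Without the libraries that stood apart, limma gave med11 -0.17 in med20Δ (adjusted p = 0.772). The annotated transcripts of med8, med6 and med11 overlap genes on the opposite strand (ral2 by 2211 bases, itt1 by 1666 and pkp1 by 853), so reads of each pair can be told apart only if the counting used strand. The same limit holds for med1, srb8, med13, srb10 and srb11, whose transcripts also overlap genes on the opposite strand.

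Med1 is the middle subunit through which many activators reach the complex in animals. Its RNA varied more between libraries than that of any other of the 10 genes in wild type. The med1 level was 1295, 625 and 689 in med20Δ, 747, 1197 and 804 in rrp6Δ, 542, 1121 and 724 in the double mutant and 2175, 914 and 662 in wild type. The deposited log2 values were -0.53, -0.41 and -0.64 in the same order of mutants, and none was called (adjusted p = 0.983, 0.894 and 0.566). In all 4 strains the highest med1 value came from the library that stood apart, 1.97, 1.54, 1.77 and 2.76 times the mean of the other 2 libraries in med20Δ, rrp6Δ, the double mutant and wild type. Without those libraries the limma differences from wild type were -0.25, -0.011 and -0.30, none called. With a term for them in the model, med1 was called lower in the double mutant (-0.53, limma adjusted p = 0.0363). That model, chosen after seeing the data, called 46.5% of all genes in this comparison.

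In the kinase module no gene passed the deposited test in any mutant. The cyclin gene srb11 had the lowest deposited log2 fold changes of the module in med20Δ (-0.58, adjusted p = 0.609) and in the double mutant (-0.78, adjusted p = 0.183). In rrp6Δ its value was -0.19 (adjusted p = 0.919). Its levels were 366, 260 and 279 in med20Δ, 334, 508 and 313 in rrp6Δ, 197, 379 and 201 in the double mutant and 610, 369 and 371 in wild type. The 3 med20Δ values lay below all wild-type values, the highest of them only just, while rrp6Δ and the double mutant each overlapped wild type. As for med1, the highest srb11 value of each strain came from the library that stood apart, at 1.36 to 1.91 times the mean of the other 2.

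Whether srb11 was called depended on those libraries. With all libraries, limma gave -0.82 ± 0.30 (SE) for the double mutant against wild type (adjusted p = 0.0541). Without those that stood apart it gave -0.88 (adjusted p = 0.00573), and with a term for them -0.82 (adjusted p = 0.000898). Leaving out only that of the double mutant gave -1.13 (adjusted p = 0.0113), and leaving out only that of rrp6Δ gave -0.82 (adjusted p = 0.0461). Over all alternatives the adjusted p lay between 0.000898 and 0.196, and the value between -1.13 and -0.57. Against rrp6Δ, srb11 was called lower in the double mutant without all the libraries that stood apart (-0.68, adjusted p = 0.0324) and with the term (-0.61, adjusted p = 0.0163), and leaving out any single library did not call it (adjusted p between 0.0640 and 0.553). The term also called it lower in med20Δ than in wild type (-0.55, adjusted p = 0.0416). Both alternatives also called larger shares of all genes in these comparisons. With the term these were 11.2% in med20Δ and 46.5% in the double mutant against wild type, and 23.9% in the double mutant against rrp6Δ. Without the libraries that stood apart, 36.9% of all genes were called in the double mutant against wild type, 17.7% against rrp6Δ and 0.235% for the interaction, the one share not above that with all libraries. With all libraries the difference between the double mutant and rrp6Δ was -0.61 (95% interval -1.26 to 0.05, limma adjusted p = 0.229), and that between the double mutant and med20Δ was -0.27 (-0.92 to 0.38, adjusted p = 0.578).

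**Figure D4:**
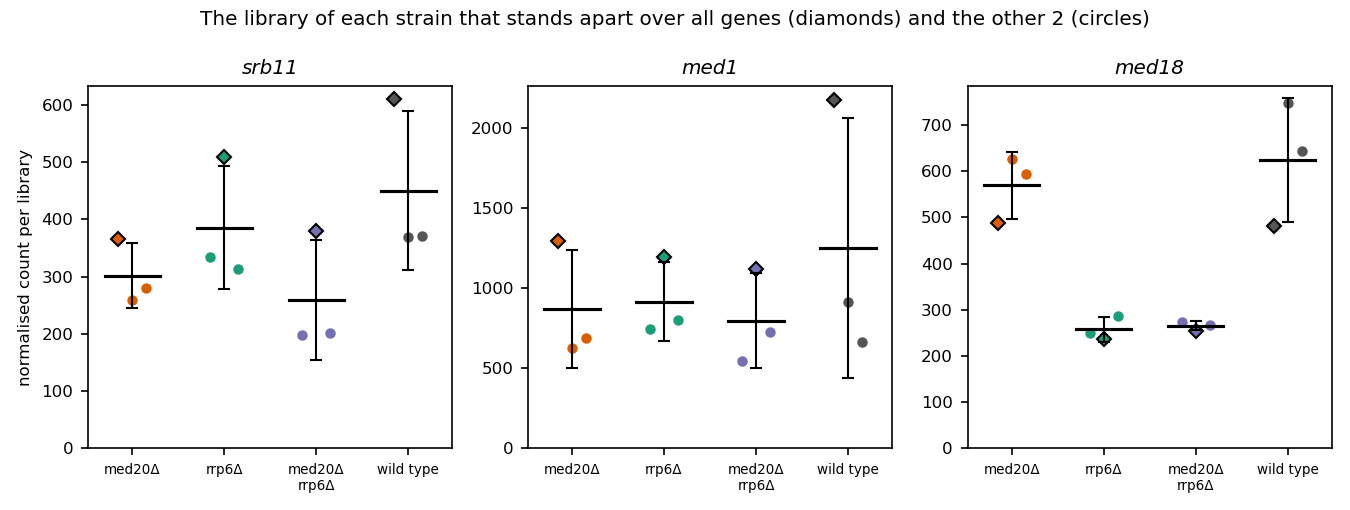
Normalised counts of srb11, med1 and med18 (y axes from 0) in the 3 recovered libraries of each strain, with the mean and SD (lines). Diamonds mark the library of each strain that stood apart on the third principal component: it is the highest of its strain for srb11 and med1 and the lowest for med18.

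The kinase gene srb10 was at 238, 225 and 254 in med20Δ, 236, 170 and 218 in rrp6Δ, 192, 139 and 215 in the double mutant and 286, 254 and 250 in wild type. All values of rrp6Δ and of the double mutant lay below all wild-type values, and those of med20Δ overlapped wild type. The deposited log2 values were -0.15, -0.30 and -0.52 in med20Δ, rrp6Δ and the double mutant (adjusted p = 1, 0.838 and 0.431), so none was called. With a term for the libraries that stood apart, limma called srb10 lower in the double mutant (-0.55, adjusted p = 0.0310), where 46.5% of all genes were called. Without those libraries it did not call srb10 (-0.30, adjusted p = 0.253). For srb8, the deposited log2 values were -0.10, -0.075 and 0.10 in the same order, and for med13 they were -0.14, -0.098 and 0.14 (adjusted p of 0.853 or more for both genes). Levels of srb8 lay between 763 and 810 in med20Δ, 706 and 908 in rrp6Δ, 636 and 1084 in the double mutant and 612 and 1110 in wild type. Without the libraries that stood apart, srb8 was called higher in the double mutant (0.55, limma adjusted p = 0.0366), where 36.9% of all genes were called. Its limma values then turned to 0.18 in med20Δ and 0.020 in rrp6Δ, neither called. Levels of med13 lay between 149 and 222 in med20Δ, 181 and 196 in rrp6Δ, 170 and 295 in the double mutant and 152 and 264 in wild type. Without the same libraries med13 turned to 0.032 in med20Δ and 0.11 in rrp6Δ, neither called.

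Beside med13, SPNCRNA.885, a non-coding RNA 12 bases away on the opposite strand, rose without rrp6. In the authors' deposited tables its mean was 116 in med20Δ against 117 in wild type, 333 in rrp6Δ against 131 in wild type and 358 in the double mutant against 142 in wild type, and the log2 values for the strains without rrp6 were 1.35 (adjusted p = 0.00438) and 1.34 (adjusted p = 0.0121). Near med8, SPNCRNA.1587, 300 bases away on the same strand, was at 66.7 in rrp6Δ against 26.0 in wild type in the authors' deposited table (log2 1.36, adjusted p = 0.0346). It had 1.34 in the double mutant (adjusted p = 0.0683). These were the only genes called in any mutant within 500 bases of the 10 genes among those the tables hold, and med13 and med8 themselves were not called. Over all genes the deposited test called 5.97% in rrp6Δ and 15.3% in the double mutant. The calls among neighbours were not tested against these shares.

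Per kilobase of coding sequence, the 10 genes differed most in rank between strains for med20 and med18. In wild type the mean level per coding kilobase was highest for med20 (1226 ± 46.0), followed by med18 (999 ± 215), med1 (916 ± 594), med11 (859 ± 171), med8 (813 ± 81.8), srb11 (655 ± 202) and med6 (499 ± 107; SD, n = 3 each). In this order each gene up to med6 overlapped the one before it in its libraries. By coding length the last 3 were genes of the kinase module, with srb8 at 243 ± 73.2, srb10 at 237 ± 17.5 and med13 at 58.5 ± 15.7. The gaps between med6 and srb8 and between srb10 and med13 were free of overlap. The cyclin gene srb11 thus stood above the 3 other genes of its module in wild type, with its lowest library at 538 per coding kilobase. By the same measure med18 ranked 1 in med20Δ (912 ± 116), 7 in rrp6Δ (413 ± 42.4) and 5 in the double mutant (425 ± 15.4), against 2 in wild type. The order rests on coding length, since reads outside it also count. The annotated transcript of med8 has 2611 bases for 603 coding bases, and per transcript kilobase its wild-type mean was 188 against 694 for med18. By transcript length med8 and med6 (136) lay below srb8 (243) and srb10 (209) in wild type. The last 3 were then not all kinase genes.

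Few genes of the rest of the transcription apparatus passed the deposited test. Over all genes that test called 2.37% in med20Δ, 5.97% in rrp6Δ and 15.3% in the double mutant. The counts below were not tested against these shares, and no share over all genes was taken for unadjusted p. Of 11 other Mediator genes, none was called in any mutant by DESeq, with 0, 0 and 3 at an unadjusted p under 0.05 in med20Δ, rrp6Δ and the double mutant. In the authors' deposited tables their lowest and highest log2 values were -0.76 (srb4) and 0.34 (rox3) in med20Δ, -0.31 (med14) and 0.27 (pmc3) in rrp6Δ, and -0.99 (srb4) and 1.03 (rox3) in the double mutant. Limma called 3 of the 11 in the double mutant against wild type: rox3 higher (0.99, adjusted p = 0.00330), and med14, the backbone subunit, lower (-1.004, adjusted p = 0.0218) with srb4, the head scaffold, also lower (-0.95, adjusted p = 0.0207). It also called rox3 higher in the double mutant than in rrp6Δ (0.78, adjusted p = 0.0362), where 8.56% of all genes were called. Of 12 RNA polymerase II subunits, DESeq called rpb9 lower in the double mutant (-1.82, adjusted p = 0.000561) and none in the other mutants in the authors' deposited tables. Of 19 general transcription factor genes it called 1 in each mutant, sua7, which encodes TFIIB, the factor that helps place the polymerase at the start site. The sua7 log2 values in the authors' deposited tables were 1.30 in med20Δ (adjusted p = 0.00708), 1.28 in rrp6Δ (adjusted p = 0.00394) and 1.91 in the double mutant (adjusted p = 2.15e-05). By limma, where 30.6% of all genes were called in the double mutant against wild type, 1 of the polymerase genes was higher and 3 were lower there, and 3 of the general factor genes were higher and 1 was lower.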

How the data were processed

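Poly(A) RNA of 12 samples was measured, and 3 comparison tables, each mutant against wild type, were analysed. The submitters' processing notes name Bowtie 0.12.7 for alignment and DESeq for the comparison. The DESeq version of the authors, their genome build and annotation, and how reads were counted, with or without strand, were not given in the sources used here. Per the file headers, the authors deposited a mean normalised signal for each strain (read counts divided by size factors), its fold change as a ratio, the log2 of that ratio, and a p-value with its adjusted p-value. Calls against wild type use the deposited adjusted p under 0.05, which is adjusted by Benjamini-Hochberg across a whole table.

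Whole counts of each library were recovered from the digits of the means, for 94.6% to 97.2% of means of a strain in a table and 6523 genes in all 12 libraries. The 3 wild-type counts were the same in all 3 tables for 6498 of 6498 genes solved in each. Recovered libraries are numbered within a strain and do not carry the replicate letters of the labels. For the double mutant against each single mutant and for the interaction, limma 3.58.1 (R 4.3.3) with a mean-variance trend was run on log2(value + 1), which understates changes of low genes, for 5947 genes with a mean of at least 10, with all 4 strains in 1 model. Values per library, SDs (n = 3) and SEs come from recovered counts. The recovery of counts and the limma fit were each run on simulated data with known values, and the outcomes are not given here. The series design calls the 3 samples of a strain biological replicates without saying how they were grown, so a p-value covers the spread of these samples only, part of which may be technical. Coding and transcript lengths, neighbours and sequences come from RefSeq ASM294v3, in which 6769 of 6888 gene IDs were found. The design had foreseen a protein table for coding lengths, and the annotation was used in its place. All 10 genes are described; of other Mediator genes those called and the extremes are named, of polymerase and general factor genes those called by the deposited test, and the 3 genes most like med18. The members and lists were chosen with earlier results of these data known, the fall of med18 among them. Alternatives were limma in place of the authors' DESeq p-values, re-centring, adjustment restricted to genes averaging 10 or more, pseudocounts of 0.5 and 5, no filter, TMM scaling, each library left out, only the strains compared, and the treatment of the libraries that stood apart.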

Additional observations from a re-analysis of the deposited data

Results flagged for a closer look

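The change of med20 RNA on deletion of med20 differed between the backgrounds without and with rrp6: by limma the double mutant minus rrp6Δ was -4.53 and med20Δ minus wild type was -6.96 on the log2 scale, a difference of 2.43. It rests on recovered counts of 48, 23 and 28 in the double mutant and 6, 2 and 5 in med20Δ, where the pseudocount of 1 has weight. With pseudocounts of 0.5 and 5 and under the other alternatives the difference lay between 1.86 and 2.70. These are residual reads of a deleted gene. The double mutant and med20Δ also differ in the label of the med20 allele and in ura4, which cannot be told apart from the rrp6 deletion.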

How the results depend on the processing

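Of 8 called values, 156 of 164 alternatives kept the direction and the call. The 8 lost calls were all of the med20 interaction. The called values are those of med20, the deleted gene, and of med18. Calls of med20 against strains that carry the gene restate the deletion and are no measure of robustness. Calls of med18 held in every alternative run. With a term for the libraries that stood apart, which was chosen after seeing the data like their removal, calls among the 10 genes numbered 2 in med20Δ (11.2% of all genes called) and 5 in the double mutant (46.5%) against wild type, and 2 in the double mutant against rrp6Δ (23.9%); without those libraries they numbered 4 in the double mutant against wild type (36.9%), 2 against rrp6Δ (17.7%) and 0 for the interaction (0.235%). With 1 library left out, the interaction had 0 to 1 calls. Of 29 uncalled values, 32 of 629 alternatives changed sign. Without the libraries that stood apart, against wild type, med11 (-0.17), srb8 (0.18) and med13 (0.032) did so in med20Δ, srb8 (0.020) and med13 (0.11) in rrp6Δ, and med6 (-0.23) in the double mutant. Re-centring on the median protein-coding gene did so for med11 (0.052), srb8 (0.045) and med13 (0.022) in rrp6Δ and med8 (0.10) in the double mutant. With 1 library left out, values in med20Δ ran from -0.12 to 0.17 for med11, -0.32 to 0.077 for med13, -0.78 to 0.082 for med1, -0.26 to 0.18 for srb8 and -0.29 to 0.021 for med18. In rrp6Δ they ran from -0.051 to 0.10 for med8, -0.65 to 0.20 for med1, -0.28 to 0.15 for srb8, -0.31 to 0.089 for med13, -0.44 to 0.024 for srb11 and -0.22 to 0.056 for med11. In the double mutant they ran from -0.11 to 0.32 for srb8, -0.084 to 0.32 for med13 and -0.089 to 0.22 for med6, and from -0.015 to 0.13 for med18 against rrp6Δ. The cause of these changes was not tested. No paired analysis was possible because the recovered libraries carry no replicate letters. The planned edgeR and DESeq2 alternatives were not run. No deposited column holds counts, and the recovered counts were tested with limma only. Counts of 2 to 6 limit what can be said of med20 in med20Δ.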
